A study of Mus musculus with 3 samples.

Results

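Enteroendocrine cells are scattered hormone-secreting cells of the gut epithelium, and 9 genes of their hormones, granules and differentiation were read here in the E13.5 mouse gut. They are Cck, Chga, Chgb, Gcg, Sst, Pyy, Ghrl, Insm1 and Scgn, found by symbol among the 33762 features of the deposited gene table, and each matched 1 feature. Polyadenylated RNA came from the caecum, the colon and the ileum of wild type embryos of the strain labelled Bl6/C57 at E13.5, with 1 sample per segment. No treatment or transgene is named for any segment. The ileum was the last of 3 equal portions into which the small intestine was divided, and the number of embryos behind a sample was not given in the sources used here. The totals were 64439701 counts in the caecum, 50772855 in the colon and 50079617 in the ileum. With 1 library per segment there is no replicate check and no test across samples, and every interval in brackets is a 95% interval that covers counting error only.

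Enteroendocrine cells arise from epithelial progenitors through a cascade of transcription factors that opens with Neurog3 and runs through Neurod1 and Insm1. They store peptide hormones in dense-core granules together with chromogranins and release them toward the blood and neighbouring cells. Each region of the adult gut carries its own set of hormones, with ghrelin most abundant in the stomach, cholecystokinin in the proximal small intestine, and peptide YY and glucagon-like peptides in the ileum and colon. Chromogranins, Insm1 and several gut peptides are also made by neurons or their precursors, which colonise the gut wall at this stage.

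Of the 9 genes, Insm1, Chgb, Chga, Cck and Ghrl were counted in every segment at low levels, Scgn was sparse, Sst was counted in the colon library alone, and Gcg and Pyy were nearly absent. Cck differed most between the segments among the 6 genes that could be compared and was highest in the caecum. Chgb, Chga and Insm1 stood at similar levels in the caecum and ileum and were lower in the colon. The summed level of the 9 genes was 9.57 RPKM in the caecum, 4.23 RPKM in the colon and 6.76 RPKM in the ileum. RPKM is the authors' scale of reads per kilobase of the gene length they used and per library size. Levels are compared between genes on it alone. A fold is the ratio of scaled counts of 2 libraries.

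Of these 9 genes, 8 have an entry in RefSeq's table of promoters, which gives 250 bases before and 50 after each start in GRCm38.p6, and the ninth is Insm1. The cyclic AMP response element, known as TGACGTCA and first described in the somatostatin promoter, was searched together with its shorter core TGACG, on both strands. The full element holds the core on each strand. Shown are the 120 bases before the start of the 4 genes in whose window the core was found, since these include both the gene highest in the caecum and the gene counted in the colon alone. Capitals mark the full element where present and otherwise the core, which stands on the opposite strand in Cck and reads CGTCA here.
Cck, chr9:121495695-121495814, minus strand: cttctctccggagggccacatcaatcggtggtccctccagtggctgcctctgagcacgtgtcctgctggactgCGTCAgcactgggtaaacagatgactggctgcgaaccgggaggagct
Sst, chr16:23890845-23890964, minus strand: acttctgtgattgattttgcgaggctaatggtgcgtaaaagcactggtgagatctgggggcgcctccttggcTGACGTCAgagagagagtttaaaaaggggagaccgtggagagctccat
Chga, chr12:102554821-102554940, plus strand: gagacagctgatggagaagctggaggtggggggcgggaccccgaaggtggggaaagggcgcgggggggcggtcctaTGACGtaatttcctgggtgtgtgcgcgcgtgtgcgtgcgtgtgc
Chgb, chr2:132781522-132781641, plus strand: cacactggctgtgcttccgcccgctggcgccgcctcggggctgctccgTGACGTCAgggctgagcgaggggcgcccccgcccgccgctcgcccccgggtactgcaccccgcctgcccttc
The capitals begin at -47 in Cck, -48 in Sst, -44 in Chga and -72 in Chgb, counted back from the start. The 8 genes have 12 windows. TGACGTCA was found in 2 of the 12, from 2 genes, and in 1.79% of the 32851 promoter windows of this length in the table. The core TGACG was found in 4 of the 12, from 4 genes, and in 20.8% of all windows. The E-box CANNTG, the type of site read by basic helix-loop-helix factors, was searched on both strands. It was found in 11 of the 12 windows, from 7 genes, and in 72.3% of all windows, and was not found in the window of Scgn. These matches describe letters. Of the 4 genes that carry the core, Cck, Chga and Chgb each had the highest value in the caecum and the lowest in the colon. By RPKM the same order held in Scgn and Ghrl, in whose windows the core was not found, and in Insm1, which was not searched. The order is thus not particular to the genes that carry the core. For Chga and Insm1 the caecum and ileum could not be told apart. For Scgn the colon and ileum could not, and the intervals of Ghrl overlapped in all 3 segments. Sst departed from this order and was counted in the colon alone.

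Cck encodes cholecystokinin, a hormone of the intestinal I cells that contracts the gallbladder and stimulates the pancreas, and is also a neuropeptide. It had 148 counts and 2.72 RPKM (2.30 to 3.19) in the caecum, 4 counts and 0.0812 RPKM (0.0221 to 0.208) in the colon, and 25 counts and 0.589 RPKM (0.381 to 0.869) in the ileum. The deposited columns behind these means held 151 and 146 counts in the caecum, 5 and 2 in the colon, and 23 and 27 in the ileum. The 3 segments stood apart from each other beyond counting error, with the caecum highest and the colon lowest. Cck had a caecum value 4.55-fold (2.97 to 7.26) above that of the ileum, and the colon lay below the ileum, by 6.43-fold (2.22 to 25.4). In the caecum its level exceeded that of 64.5% of features, in the colon 39.8% and in the ileum 54.0%. It was first of the 9 genes by RPKM in the caecum, the last of the 7 counted in the colon and, in the ileum, below Insm1, Chgb, Ghrl and Chga.

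Sst encodes somatostatin, made by D cells and by neurons, which restrains the release of other hormones. It had 0 counts in the caecum, 19 in the colon and 0 in the ileum, and its colon level was 0.625 RPKM (0.376 to 0.976). The colon columns held 20 and 18 counts, and the columns of the other segments held 0 each. A count of 0 allows up to 3 counts per library, or 0.0465 CPM (counts scaled to library size) in the caecum and 0.0604 in the ileum, against 0.372 CPM measured in the colon. Against that limit, Sst had a colon value at least 8.01-fold above that of the caecum and at least 6.16-fold above that of the ileum. Both values take the 19 counts as measured, without their counting error. Its mean of 19 lay just under the minimum of 20 counts that a gene needed to be compared, so it enters no count of genes below, and 1 of its 2 columns would have reached the minimum. Within the colon its level was close to those of Chgb at 0.618 RPKM and Chga at 0.555 RPKM, whose intervals overlapped its own.

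Ghrl encodes ghrelin, the appetite-stimulating peptide best known from the stomach. It had 49 counts in the caecum, 26 in the colon and 38 in the ileum. Its levels were 1.44 RPKM (1.07 to 1.91) in the caecum, 0.972 RPKM (0.635 to 1.42) in the colon and 1.42 RPKM (1.01 to 1.95) in the ileum. All 3 intervals overlapped. The caecum over colon difference was 1.49-fold (0.909 to 2.5), that between ileum and colon 1.5-fold (0.890 to 2.58) with the ileum higher, and that between ileum and caecum 1.01-fold (0.643 to 1.57). A difference between segments was therefore not detectable at this depth with counts scaled to library size.

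Gcg, which encodes proglucagon, the precursor of glucagon and the glucagon-like peptides, had 0 counts in the caecum, 0 in the colon and 2 in the ileum. Pyy, the peptide YY gene of the L cells, had 0 counts in the caecum, 0 in the colon and 3 in the ileum. Both lay at or under the limit that a count of 0 allows in every library, and no fold is given. In the ileum their levels were 0.0267 RPKM (0.00323 to 0.0964) and 0.104 RPKM (0.0215 to 0.305). The upper end for Pyy lay below the lower end for Cck in the same library.

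**Figure D1:**
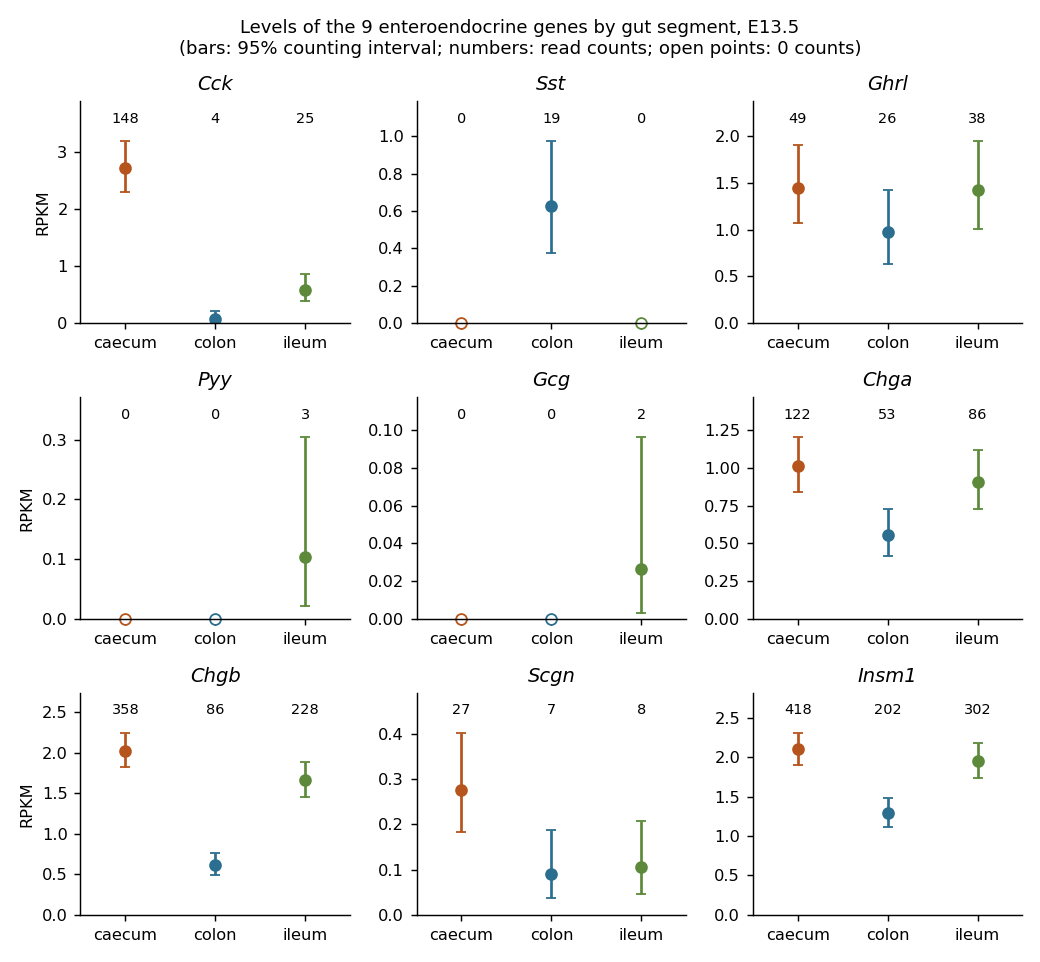
RPKM (vertical axes, each starting at 0) of the 9 genes in the caecum, colon and ileum libraries, 1 point per library, with bars for the 95% counting interval, read counts above the points and open points for 0 counts. Cck was highest in the caecum at 2.72 RPKM, Sst was counted in the colon alone with 19 counts, and Chga, Chgb and Insm1 were lowest in the colon.

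Chga and Chgb encode chromogranins A and B, acidic proteins of the dense-core granule found in most endocrine cells and in many neurons. Chga had 122 counts and 1.01 RPKM (0.839 to 1.21) in the caecum, 53 counts and 0.555 RPKM (0.415 to 0.725) in the colon, and 86 counts and 0.907 RPKM (0.725 to 1.12) in the ileum. Chgb had 358 counts and 2.03 RPKM (1.82 to 2.25) in the caecum, 86 counts and 0.618 RPKM (0.494 to 0.763) in the colon, and 228 counts and 1.66 RPKM (1.45 to 1.89) in the ileum. Both were lowest in the colon, where Chgb was further down than Chga. Chgb had a caecum value 3.29-fold (2.60 to 4.22) above that of the colon, and the ileum was 2.73-fold (2.12 to 3.54) above the colon. For Chga the same differences were 1.82-fold (1.31 to 2.56) and 1.67-fold (1.17 to 2.40). Caecum and ileum differed by 1.21-fold (1.02 to 1.43) for Chgb and by 1.09-fold (0.821 to 1.45) for Chga, with the caecum higher. The ratio of Chgb to Chga in RPKM was 2.01 (1.63 to 2.49) in the caecum, 1.11 (0.782 to 1.60) in the colon and 1.83 (1.42 to 2.38) in the ileum.

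Scgn encodes secretagogin, a calcium-binding protein of endocrine cells. It had 27 counts in the caecum, 7 in the colon and 8 in the ileum, and its levels were 0.277 RPKM (0.183 to 0.403), 0.0911 RPKM (0.0366 to 0.188) and 0.106 RPKM (0.0456 to 0.208) in that order. It had a caecum value 3.05-fold (1.30 to 8.30) above that of the colon and 2.60-fold (1.15 to 6.61) above that of the ileum. Both intervals reached well below 2-fold, and Scgn met the minimum of 20 counts through its caecum count alone. Colon and ileum could not be told apart, at 1.18-fold (0.373 to 3.81) with the ileum higher.

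Insm1 encodes a zinc finger repressor that endocrine precursors need to differentiate and that neuronal progenitors also carry. It had 418 counts and 2.10 RPKM (1.90 to 2.31) in the caecum, 202 counts and 1.28 RPKM (1.11 to 1.47) in the colon, and 302 counts and 1.94 RPKM (1.73 to 2.18) in the ileum. It led the 9 genes in the colon and ileum and had the most counts in every library. The caecum was 1.64-fold (1.38 to 1.95) and the ileum 1.54-fold (1.28 to 1.85) above the colon, both short of 2-fold with intervals above 1. Caecum over ileum was 1.06-fold (0.916 to 1.24).

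The order of the 9 genes by RPKM differed between the segments mainly through Cck and Sst. In the caecum it ran Cck, Insm1, Chgb, Ghrl, Chga and Scgn, in the colon Insm1, Ghrl, Sst, Chgb, Chga, Scgn and Cck, and in the ileum Insm1, Chgb, Ghrl, Chga, Cck, Scgn, Pyy and Gcg. Neighbours in these orders had overlapping intervals, except Chga and Scgn in the caecum, Chga and Scgn in the colon, and Cck and Scgn in the ileum. Set against Chga within a library, Cck had a ratio of RPKM of 2.69 (2.10 to 3.45) in the caecum, 0.146 (0.0385 to 0.398) in the colon and 0.649 (0.398 to 1.02) in the ileum. The ratio of Ghrl to Chga was 1.43 (1.0 to 2.01), 1.75 (1.05 to 2.85) and 1.57 (1.04 to 2.32) in the same order, and that of Insm1 to Chga 2.08 (1.69 to 2.56), 2.32 (1.71 to 3.20) and 2.14 (1.68 to 2.76). Ghrl, Insm1 and Chga thus kept ratios whose intervals overlapped across the segments, while those of Cck did not overlap between the caecum and either neighbour. In bulk tissue, fewer cells of a type and less RNA per cell cannot be told apart.

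Between caecum and ileum, 6 of the 9 genes had 20 counts or more in 1 of the libraries compared, and Cck and Scgn passed 2-fold on the caecum side while 0 did so on the ileum side. Over all 17827 genes compared, 4.59% passed 2-fold on the caecum side and 2.52% on the ileum side. The median log2 fold of the 6 genes was 0.20, against 0.01 for all genes compared. Between caecum and colon, Cck, Chgb and Scgn passed 2-fold on the caecum side and 0 of the 6 genes on the colon side, against 5.11% and 2.74% of 17900 genes. The median log2 fold was 1.24, against 0.01 for all genes. Between colon and ileum, 5 genes were compared, and 0 passed 2-fold on the colon side, while Cck and Chgb did so on the ileum side, against 4.04% and 4.29% of 17579 genes. These 3 comparisons share their libraries and are not independent.

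**Figure D2:**
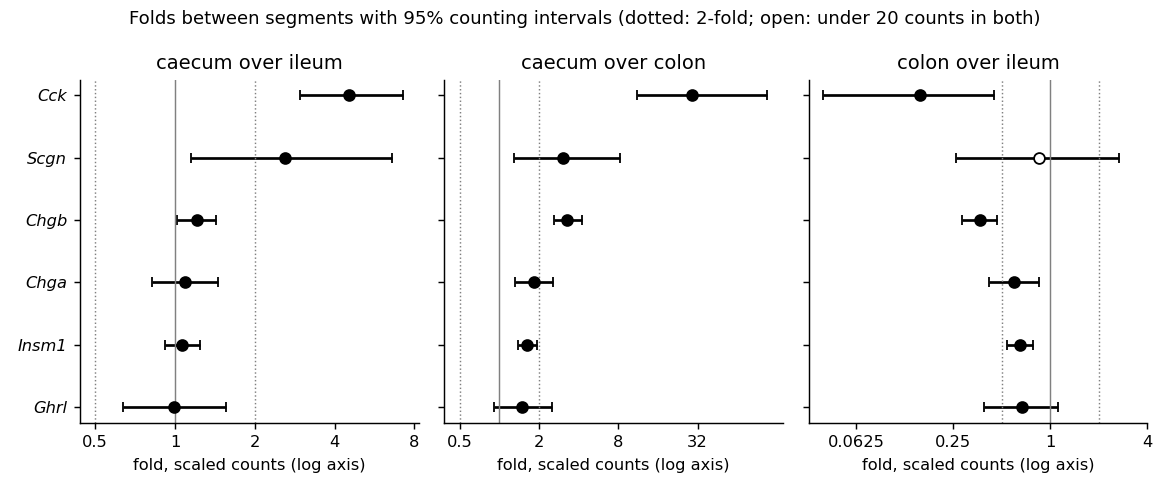
Folds of scaled counts (horizontal log axes) between the segments named above each panel for the 6 genes with at least 20 counts in a library, with 95% counting intervals as bars, dotted lines at 2-fold and an open point where both libraries had under 20 counts. Cck lay beyond 2-fold with its whole interval in all 3 panels, and Chgb did so in both comparisons with the colon.

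Of the other gut hormones, Sct was the only one of 11 listed genes, besides the enzyme gene Ddc, to reach 20 counts in a library. Sct encodes secretin, which stimulates bicarbonate release by the pancreas. It had 132 counts and 3.85 RPKM in the caecum, 20 counts and 0.738 RPKM in the colon, and 56 counts and 2.08 RPKM in the ileum. It had a caecum value 5.22-fold (3.25 to 8.83) above that of the colon and 1.81-fold (1.32 to 2.52) above that of the ileum, and the ileum lay 2.88-fold (1.70 to 5.07) above the colon. In the caecum its interval (3.22 to 4.57) lay above that of every one of the 9 genes. In the ileum its value was also the highest, but its interval (1.57 to 2.69) overlapped that of Insm1 (1.73 to 2.18). Ddc, the decarboxylase that makes serotonin and dopamine, stayed within 2-fold, with 5.41 RPKM in the caecum, 5.23 in the colon and 4.79 in the ileum. Tph1, which encodes the rate-limiting enzyme of serotonin synthesis outside neurons, had 9, 11 and 1 counts in the caecum, colon and ileum. Nts, the neurotensin gene, had 9, 14 and 11 counts, Gip, Gast, Tac1, Insl5 and Ucn3 had at most 4, and Ppy and Iapp had 0 in all 3 libraries.

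Neurog3 and Neurod1, the factors that open the endocrine programme, had 0 counts in all 3 libraries, although Insm1 was counted in each. Both lie inside the span of another feature of the table, Neurog3 in 2010107G23Rik and Neurod1 in Cerkl, and how reads of overlapping features were assigned is not given in the sources used here. Neurod1 also overlaps Gm17325. Of 742 protein-coding features inside another, 88.4% were counted in at least 1 library. The part of read assignment in these 0 counts was not tested. Atoh1, the secretory lineage factor, had 0 counts after rounding. Pax4, Nkx2-2 and Fev, which act in endocrine subtypes, had at most 3 counts in a library.

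Other endocrine factors were measured, and all of them also act in other cells. Rfx6, a winged-helix factor of endocrine differentiation, had 216 counts in the caecum, 42 in the colon and 239 in the ileum, and had a caecum value 4.07-fold (2.91 to 5.81) above that of the colon. Myt1, a zinc finger factor of endocrine and neural cells, had 1437, 250 and 1114 counts in the same order and had a caecum value 4.55-fold (3.97 to 5.22) above that of the colon. Lmx1a, a LIM homeobox gene, had 64, 7 and 6 counts, and had a caecum value 7.23-fold (3.32 to 18.7) above that of the colon and 8.20-fold (3.57 to 23.2) above that of the ileum. It thus had its highest value in the same segment as Cck and Scgn. Isl1, a LIM homeobox gene of D cells and of many other tissues, had 11, 390 and 19 counts and was highest in the colon, as Sst was. Foxa2, a forkhead factor of endoderm, had 254, 412 and 68 counts and had a colon value 5.89-fold (4.55 to 7.73) above that of the ileum. Foxa1 and Pax6 stayed within 2-fold in every comparison. In all, 4 of 9 listed factors compared passed 2-fold on the caecum side against the colon and 2 on the colon side, with a median log2 fold of 0.56.

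Most listed genes of the secretory granule and of prohormone processing were lower in the colon library than in both others. Dense-core granules are found in many neurons too, and the part of each cell type in these values was not tested. Of 14 listed genes, all compared, 9 passed 2-fold on the caecum side against the colon and 0 on the colon side, with a median log2 fold of 1.46. Of 13 compared between colon and ileum, 10 passed 2-fold on the ileum side and 0 on the colon side, with a median of -1.33. Between caecum and ileum 1 of 14, Pcsk2, passed 2-fold on the caecum side, 0 on the ileum side, and the median was 0.04. Pcsk1, the convertase that cuts prohormones in endocrine cells, had 24 counts in the caecum, 0 in the colon and 22 in the ileum. With the 24 and 22 counts taken as measured, the caecum was at least 6.33-fold and the ileum at least 7.55-fold above the colon. Ptprn, a membrane protein of the granule, had a caecum value 5.58-fold (4.0 to 7.97) above that of the colon. Pcsk1n, which encodes an inhibitor of Pcsk1, and Cadps, which primes granules for release, had caecum values 4.85-fold (2.84 to 8.81) and 3.60-fold (3.28 to 3.95) above those of the colon. Cpe, carboxypeptidase E, had a caecum value 2.39-fold (2.27 to 2.52) above that of the colon and was highest in the ileum, with 40.4 RPKM in the caecum, 17.0 RPKM in the colon and 67.4 RPKM in the ileum. Pam, Scg5 and Vgf stayed within 2-fold in every comparison.

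Receptors of these hormones had no common direction. Of 18 listed, 13 were compared between caecum and colon, of which 5 passed 2-fold on the caecum side and 4 on the colon side, with a median log2 fold of 0.50. Cckbr, the receptor that cholecystokinin shares with gastrin, had 74 counts in the caecum, 6 in the colon and 1 in the ileum. It had a caecum value 9.76-fold (4.28 to 27.4) above that of the colon and 56.9-fold (9.90 to 2277) above that of the ileum. Its highest value fell in the segment where Cck was highest. Cckar, the other cholecystokinin receptor, was highest in the ileum, with 393, 220 and 698 counts in the caecum, colon and ileum. Sstr5, a somatostatin receptor, had 10, 66 and, after rounding, 0 counts. Its colon value was 8.34-fold (4.26 to 18.2) above the caecum and, with the 66 counts taken as measured, at least 21.4-fold above the ileum. Sstr2 and Sstr4, of the same family, stayed within 2-fold. Gcgr, the glucagon receptor, had 30, 2 and 6 counts, and Glp2r had 109, 403 and 182. Gipr stayed within 2-fold where compared, and Ghsr, the ghrelin receptor, had 0 counts in all 3 libraries.

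**Figure D3:**
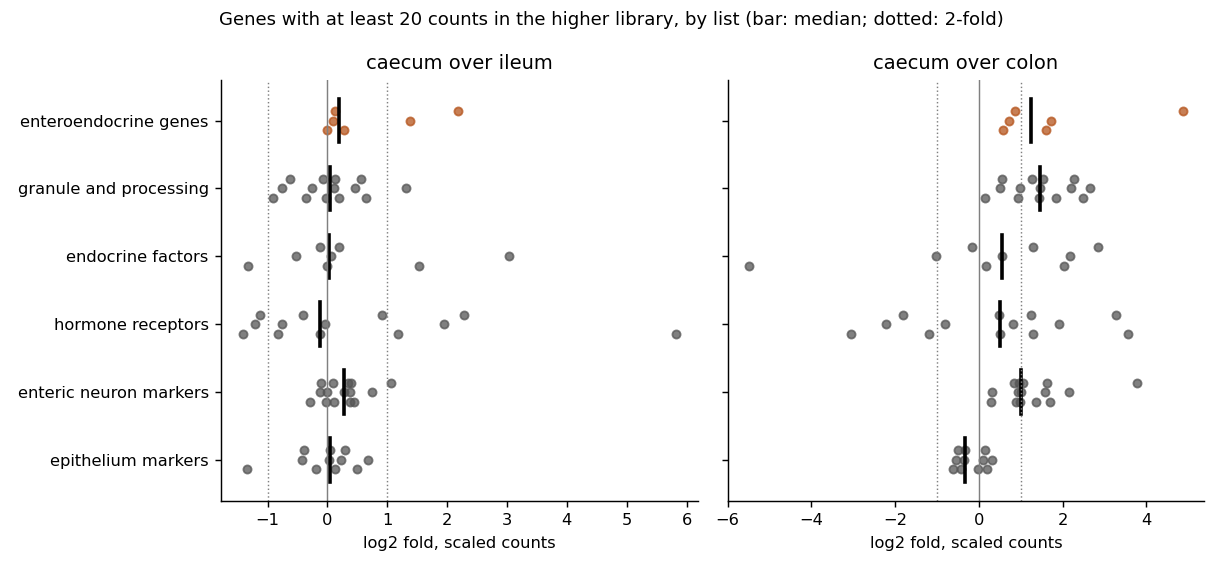
Log2 folds of scaled counts (horizontal axes) for caecum over ileum and caecum over colon, 1 point per gene with 20 counts or more in either library compared, by gene list, with a bar at the list median and dotted lines at 2-fold. For caecum over colon the medians were 1.24 for the enteroendocrine genes, 1.46 for granule genes, 1.0 for enteric neuron markers and -0.33 for epithelium markers.

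Markers of the epithelium, the tissue that holds enteroendocrine cells, were all counted above the minimum, and most stayed within 2-fold between segments. The 11 markers had a summed level of 228 RPKM in the caecum, 265 in the colon and 224 in the ileum. Their median log2 fold was -0.33 for caecum over colon, with 0 of 11 at least 2-fold apart, 0.04 for caecum over ileum, where Elf3 passed 2-fold on the ileum side, and 0.31 for colon over ileum, where Krt19 passed 2-fold on the colon side. Epcam, the epithelial adhesion molecule, had 5095 counts in the caecum, 3761 in the colon and 5108 in the ileum. Markers of the stomach and pancreas were sparse, with Ptf1a and Ins2 at 0 in all libraries, Pdx1 at 1 count in the caecum and 0 elsewhere, and Gkn1 and Gkn2 at no more than 6 counts. Of the 10 pancreas markers, Cpa1 and Mnx1 reached 20 counts, and of the 9 stomach markers, Sox2 and Atp4a did. The summed level of the pancreas markers was 0.806, 0.815 and 2.16 RPKM in the caecum, colon and ileum. In the caecum and ileum it came mostly from Mnx1, which is not confined to the pancreas. In the colon Mnx1 had 0.330 RPKM and Cpa1 0.321 RPKM. The summed level of the stomach markers was 6.55, 4.78 and 5.20 RPKM in the caecum, colon and ileum, mostly from Sox2, which enteric neural crest cells also carry.

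Markers of enteric neurons and their neural crest precursors were in sum lowest in the colon library, as the chromogranins and Insm1 were. All 15 were counted above the minimum, and their summed level was 272 RPKM in the caecum, 138 in the colon and 223 in the ileum. Of these, 8 passed 2-fold on the caecum side against the colon and 0 on the colon side. Between colon and ileum, 7 passed it on the ileum side and 0 on the colon side, and between caecum and ileum 1, Dbh, did so on the caecum side and 0 on the ileum side. Their median log2 folds were 1.0 for caecum over colon, -0.89 for colon over ileum and 0.27 for caecum over ileum. Th, the tyrosine hydroxylase gene, Prph, the peripherin gene, and Stmn2 had caecum values 13.7-fold (6.09 to 38.2), 4.43-fold (3.82 to 5.15) and 3.09-fold (2.89 to 3.31) above those of the colon, whereas Ret, Hand2 and Gap43 stayed within 2-fold. The part of these cells in the values of the enteroendocrine genes was not tested.

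Folds were also taken against the summed counts of each marker list in place of the library scaling, an alternative chosen after values were seen. Scaling by epithelium markers moved the median of all genes by 0.23 (log2) for caecum over colon, and scaling by enteric neuron markers moved it by -0.80. Under the library scaling, Cck had a caecum value 29.3-fold (11.2 to 108.8) above that of the colon. Against the epithelium markers, Cck had a caecum value 34.3-fold (13.1 to 127.6) above that of the colon, Chgb 3.86-fold (3.04 to 4.94) and Insm1 1.92-fold (1.62 to 2.28), while Chga passed 2-fold at 2.13 (1.53 to 3.0). Against the neuron markers, Cck in the caecum was still 16.8-fold (6.42 to 62.4) above the colon and 3.81-fold (2.48 to 6.08) above the ileum. Chgb came to 1.89-fold (1.49 to 2.42) for caecum over colon on that scale, Scgn to 1.75-fold (0.743 to 4.76) and Chga to 1.04-fold (0.750 to 1.47). Insm1 was 1.07-fold (0.896 to 1.26) and Ghrl 1.17-fold (0.698 to 1.92) higher in the colon on it, with intervals on both sides of 1. Each such scaling moves every gene by the same factor, which depends on the markers with the most counts. Ret held 13564 of the 49625 counts of the neuron sum in the caecum and 8756 of 22503 in the colon. Between these segments Ret differed by 1.225-fold (1.193 to 1.259), the smallest fold of the 15 neuron markers, with Hand2 next at 1.251-fold (1.187 to 1.318). The folds left on the neuron scale therefore depend on this weighting, and other weightings were not tried. Among the 6 genes compared, Cck was the 1 gene at least 2-fold apart between caecum and colon with its whole interval under both marker scalings and the library scaling.

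**Figure D4:**
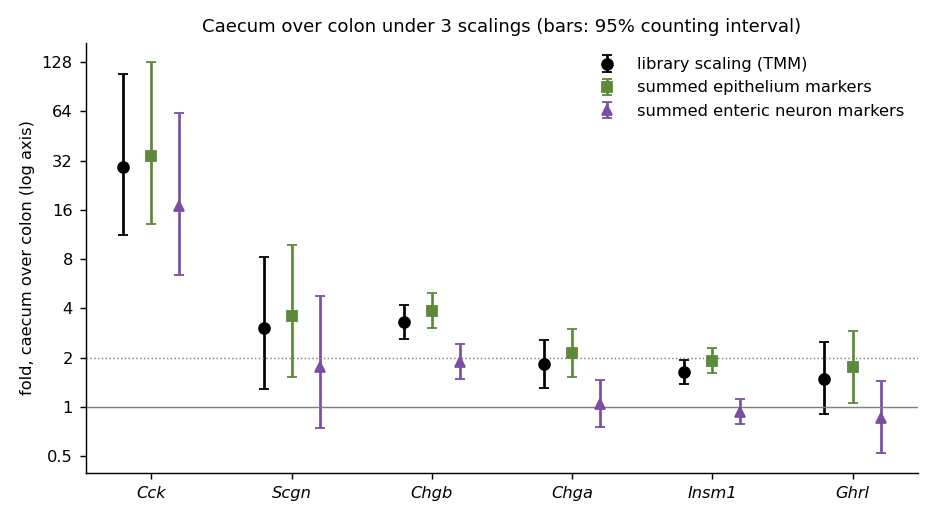
Fold of caecum over colon (vertical log axis) for 6 genes under library scaling, under scaling by summed epithelium markers and under scaling by summed enteric neuron markers, with 95% counting intervals as bars and a dotted line at 2-fold. Cck was 16.8-fold or more higher in the caecum under all 3 scalings, while Chga, Insm1 and Ghrl lay near 1 when set against the neuron markers.

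Profiles were compared by the share of a gene's scaled counts found in each segment, over 3 libraries. Cck had 79.7% of its scaled counts in the caecum, 2.73% in the colon and 17.5% in the ileum. Among 12495 named genes with at least 100 counts in a library, 3 lay within 0.05 of it in Euclidean distance of shares, among them Rbp4, a retinol carrier, at 0.0351. The profile of Cck was the least common of the 6 compared. Chgb had 56 genes within that distance, led by Nacad and Mast1, and Scgn had 26, led by Wscd2 and Sned1. The profiles of Chga, Insm1 and Ghrl were common, with 174, 251 and 331 genes as near. The nearest to Chga were Sarm1 and Phf21b, to Insm1 Chn2 and Rgs17, and to Ghrl Tbc1d4 and Tmem229b. No counting error was computed for these shares. The shares of Ghrl rest on 49, 26 and 38 counts in the caecum, colon and ileum, and those of Scgn on 27, 7 and 8. For genes with so few counts the named neighbours and the number of genes as near are uncertain.

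In mm9 coordinates as the table gives them, counted from 1, Cck (ENSMUSG00000032532) lies on the minus strand of chromosome 9 from 121398943 to 121404807 and Chgb (ENSMUSG00000027350) on the plus strand of chromosome 2 from 132607014 to 132620815. Chga (ENSMUSG00000021194) lies on the plus strand of chromosome 12 from 103793179 to 103803237, and Sst (ENSMUSG00000004366) on the minus strand of chromosome 16 from 23889667 to 23890930. Insm1 (ENSMUSG00000068154) lies on the plus strand of chromosome 2 from 146047657 to 146050752, Ghrl (ENSMUSG00000064177) on the minus strand of chromosome 6 from 113666113 to 113669874, and Scgn (ENSMUSG00000021337) on the minus strand of chromosome 13 from 24045325 to 24083083. Gcg (ENSMUSG00000000394) lies on the minus strand of chromosome 2 from 62312587 to 62321707 and Pyy (ENSMUSG00000017311) on the minus strand of chromosome 11 from 101967990 to 101969146. Of the 9 genes, 0 overlap another feature of the table, so no read is shared through overlap. Sharing of reads with features elsewhere was not examined. Among the other genes named, Glp2r, Sstr2, Pax6, Nkx2-2, Neurog3, Neurod1, Pcsk1n, Pcsk2, Pam, Cadps, Iapp, Elf3 and Sox2 overlap another feature, so their counts are uncertain where reads are shared. The values are given per gene and do not separate exons, introns or untranslated regions.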

How the data were processed

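Gene values of 3 libraries were used, 1 per segment. Per the file headers, the deposited table holds expected counts, with fractions of 0.5 in places, and RPKM, which the authors scaled to gene length and depth. Bowtie 0.12.7, DESeq and the build mm9 are named in the submitters' processing notes, without their roles. The counting program, annotation and use of strand are not given in the sources used here. Starts were taken as counted from 0, as the mitochondrial genes show, and 1 was added.

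Each segment has 2 columns labelled as replicates, which come from 1 sample. Their mean squared difference was 0.486 times the counting variance in the caecum, 0.486 in the colon and 0.485 in the ileum, less than counting noise, so they were averaged as 1 library, and counts were rounded to whole numbers. Libraries were scaled by TMM (edgeR 4.0.16, R 4.3.3). Each fold divides 1 scaled count by the other, with a 95% interval from the exact (Clopper-Pearson) binomial limits of the pair, and RPKM intervals are exact Poisson limits of the counts. Both cover counting error only. A gene needed 20 counts or more in 1 of the libraries to be compared and was called at 2-fold. Counts of 0 were set to a floor of 3 per library. A fold given as at least a value takes the other count as measured, without its counting error. The procedure was run on simulated counts that held counting error alone, which is the error the intervals assume. That run therefore cannot show how the folds or intervals would fare with differences between samples. No p-value was computed.

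The members, gene lists and naming rule were chosen with earlier results of these data known. Named are all 9 members. Of each other list, the rule takes up to 5 genes with the largest interval bounds, up to 3 within 2-fold with the highest RPKM, and those at 0. Tph1, Nts, Gip, Gast, Tac1, Insl5, Ucn3, Pax4, Nkx2-2, Fev, Pcsk2, Pdx1, Gkn1, Gkn2 and Dbh were named outside it, after their values were seen. Some genes are not reported here. Promoters come from RefSeq (GRCm38.p6), another build than mm9, and no coordinates were converted. Alternatives were DESeq2 1.42.0 size factors, total counts, other count minimums, an interval rule, single columns, RPKM ratios and marker scalings.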

Additional observations from a re-analysis of the deposited data

How the results depend on the processing

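No paired analysis was possible because each segment has 1 library. Under DESeq2 size factors, total counts, either column alone and RPKM ratios, every recomputed log2 fold of the named genes (140 per setting, 136 for RPKM) stayed inside its counting interval. Little movement was possible there, since the 2 columns come from 1 sample and the TMM factors were 1.002, 1.006 and 0.992 in the caecum, colon and ileum. Under epithelium and neuron scaling, both added after seeing the data, 40 and 94 of 140 folds left their counting intervals, and 0 called folds changed sign. For caecum over ileum, the count of 2 members higher, Cck and Scgn, became 1 with a minimum of 100 counts and 1 by requiring the whole interval beyond 2-fold, in both cases Cck. For caecum over colon, neuron scaling left 1 of the 3 genes higher, Cck. With no count minimum Sst made 1 gene lower in the caecum (against the colon) and 1 higher in the colon (against the ileum), and with either column left out both counts ranged from 0 to 1. For colon over ileum, the count of 2 lower became 1 with a minimum of 100 (Chgb) and 1 under neuron scaling (Cck). Counts over all genes depend on the minimum. For caecum over ileum, 819 higher and 449 lower became 1410 and 1034 with no minimum, 439 and 268 at 100 counts, and 397 and 233 by interval. For caecum over colon, 914 and 490 became 1404 and 1358, 563 and 241, and 512 and 229 in the same order. For colon over ileum, 710 and 755 became 1312 and 1424, 336 and 474, and 347 and 422. Depth limits Gcg, Pyy, Sst, Scgn and Ghrl, whose counts are under 50 in every library, and the lack of replicate libraries limits every comparison.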
